A study of Mus musculus with 6 samples.

Results

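Stromal and endothelial genes, 10 in number, were read in B cells isolated from the spleens of CD37KO and WT mice. They are Igfbp7, Sparc, Sparcl1, Col4a1, Col4a2, Col3a1, Cdh5, Kdr, Cxcl13 and Madcam1, out of 19935 genes measured. Each was read from the only probe set that names it alone. Igfbp7 and Sparc had been picked because their level was lower in CD37KO than in WT isolates, and the whole set was drawn up with results of these arrays known. The genotype differences of these 10 genes are therefore given as a description, with no p-value for any of them. The limma fit over all genes, given below, included the 10, and nothing is read from its calls on them. RNA came from 3 CD37KO mice (Cd37 -/-) and 3 WT mice, with 1 Affymetrix mouse gene array per mouse. Both genotypes had the C57BL/6J background, were described as littermates and were labelled as 3 months old, and the spleen was the tissue of all 6. The cells were what remained after magnetic beads had removed cells carrying CD43, a protein of T cells, myeloid cells and activated B cells, with staining for the B cell protein B220 used only to judge purity. CD37, the protein that the mutant mice lack in all cells, is a tetraspanin found mainly on B cells.

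As background, stromal cells hold a lymphoid organ together. Fibroblastic cells of the spleen lay down reticular fibres of collagen, and endothelial cells rest on a basement membrane whose network is built of type IV collagen and laminin. Cells of the follicle stroma secrete the chemokine CXCL13, which draws in B cells through the receptor CXCR5. Endothelial and stromal cells do not belong to the B lineage and are anchored in the tissue, so a B cell isolate is expected to hold few of them.

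Promoter sequences from RefSeq (build GRCm38.p6, the 250 bases before to 50 after a gene's start) were found for 8 of the 10 genes, all but Sparcl1 and Cdh5. Those of 3 genes are shown. That of Igfbp7, the gene with the largest difference, is given first, and those of Col4a1 and Col4a2 are given because both genes start within 21 bases of each other on opposite strands of chromosome 8. The window of Igfbp7 lies at chr5:77407996-77408295 on the minus strand, with the 4 matches of GGGCGG on either strand in capitals and no match of the other motifs named below. Col4a1 lies at chr8:11312777-11313076 on the minus strand and Col4a2 at chr8:11312555-11312854 on the plus strand, with the 78 bases that both windows hold, each read on its own strand, in capitals.
Igfbp7: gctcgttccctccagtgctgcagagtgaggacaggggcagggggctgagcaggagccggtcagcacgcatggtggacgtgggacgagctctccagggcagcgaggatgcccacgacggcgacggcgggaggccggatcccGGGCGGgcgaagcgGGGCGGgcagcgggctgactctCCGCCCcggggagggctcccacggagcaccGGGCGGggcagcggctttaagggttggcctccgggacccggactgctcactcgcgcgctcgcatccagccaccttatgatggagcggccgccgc
Col4a1: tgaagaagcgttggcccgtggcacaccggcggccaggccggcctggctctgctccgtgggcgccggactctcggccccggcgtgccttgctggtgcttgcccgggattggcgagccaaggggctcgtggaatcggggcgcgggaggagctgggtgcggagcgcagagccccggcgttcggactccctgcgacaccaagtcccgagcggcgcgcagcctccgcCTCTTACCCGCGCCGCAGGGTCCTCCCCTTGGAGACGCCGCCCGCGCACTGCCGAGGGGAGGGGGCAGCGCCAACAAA
Col4a2: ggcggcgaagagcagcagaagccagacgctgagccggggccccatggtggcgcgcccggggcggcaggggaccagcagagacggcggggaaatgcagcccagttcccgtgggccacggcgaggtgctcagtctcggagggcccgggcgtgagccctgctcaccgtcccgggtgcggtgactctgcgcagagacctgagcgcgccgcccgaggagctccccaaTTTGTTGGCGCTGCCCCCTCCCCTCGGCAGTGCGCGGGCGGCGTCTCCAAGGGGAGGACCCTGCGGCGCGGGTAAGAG
The motifs, searched on both strands, were the GC box GGGCGG, the TATA box TATAAA, the CCAAT box and GGAAG, a core of ETS factor sites. GGGCGG was matched 4 times in the Igfbp7 window and was found in 4 of the 8 windows, against 35.7% of all 32851 promoters in the table. The Col4a1 match lies in the bases shared with Col4a2, so that site is counted in both windows. G and C made up 73.3% (Igfbp7), 74.0% (Col4a1), 73.7% (Col4a2) and 60.7% (Kdr) of the 4 windows with a match. The median over all promoters was 52.7%. TATAAA was found in 2 of the 8 windows (Col3a1 and Cxcl13), against 13.6% of all promoters. CCAAT was found in 2 (Col4a1 and Col4a2), against 37.4%, and GGAAG in 4 (Col3a1, Kdr, Cxcl13 and Madcam1), against 71.4%. Sparc had none of the 4 motifs. These matches describe letters in a window and not binding.

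The labelled cell type was borne out by its markers. All 11 measured genes of mature B cells, such as Ms4a1 and Cd79a, were above background in all 6 arrays, and their mean log2 level was 11.6 to 11.7 in CD37KO arrays and 11.6 to 11.7 in WT arrays. Cd37 itself was at 8.15, 8.17 and 8.17 in CD37KO arrays, against 11.99, 11.83 and 12.08 in WT arrays, each in the order of replicates 1, 2 and 3. Background was set at a log2 level of 5.77, the 95th percentile of 1015 olfactory receptor genes, which B cells are not expected to use. Across all genes, 5 were higher (0.0251%) and 6 lower (0.0301%) in CD37KO arrays at an adjusted p under 0.05 from limma, together 0.0552% of those tested, and none of the 10 genes was among them. The split was 5 higher and 4 lower after a second quantile normalization, and 12 higher and 2 lower without CD37KO replicate 2. RNA of other cells was present too. Macrophage and monocyte genes (11 of 12 above background in all arrays) averaged 8.50 to 9.93 in CD37KO and 8.98 to 9.80 in WT arrays, and 13 neutrophil genes averaged 6.45 to 7.72 in CD37KO and 5.94 to 6.17 in WT arrays.

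Only 3 of the 10 genes, Igfbp7, Sparc and Cxcl13, were above background in all 6 arrays. Col3a1 was above it in 3 arrays and Col4a1 in 2. Sparcl1, Col4a2, Cdh5, Kdr and Madcam1 were not above it in any array. The mean log2 level was lower in CD37KO than in WT arrays for all 10 genes, as it was for 58.2% of all genes, for 75.2% of the 8655 genes that were not above background in any array and for 43% of the 9874 genes above it in all arrays. For 4 of the 10 (Igfbp7, Sparc, Cdh5 and Kdr) every CD37KO array lay below every WT array, which held for 7.57% of all genes and for 4.62% of those above background in all arrays (10.8% of those above it in none), while every CD37KO array lay above every WT array for 4.33% of all genes. Because the contrast had served to choose genes of the set, nothing is read from these counts. The median log2 difference of the 10 genes was -0.15, against -0.019 over all genes and -0.046 over the genes not above background in any array. Over the 8 genes other than Igfbp7 and Sparc, which were also chosen with results known, it was -0.14. In these bulk isolates, fewer cells of a type and less RNA per cell cannot be told apart.

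**Figure D1:**
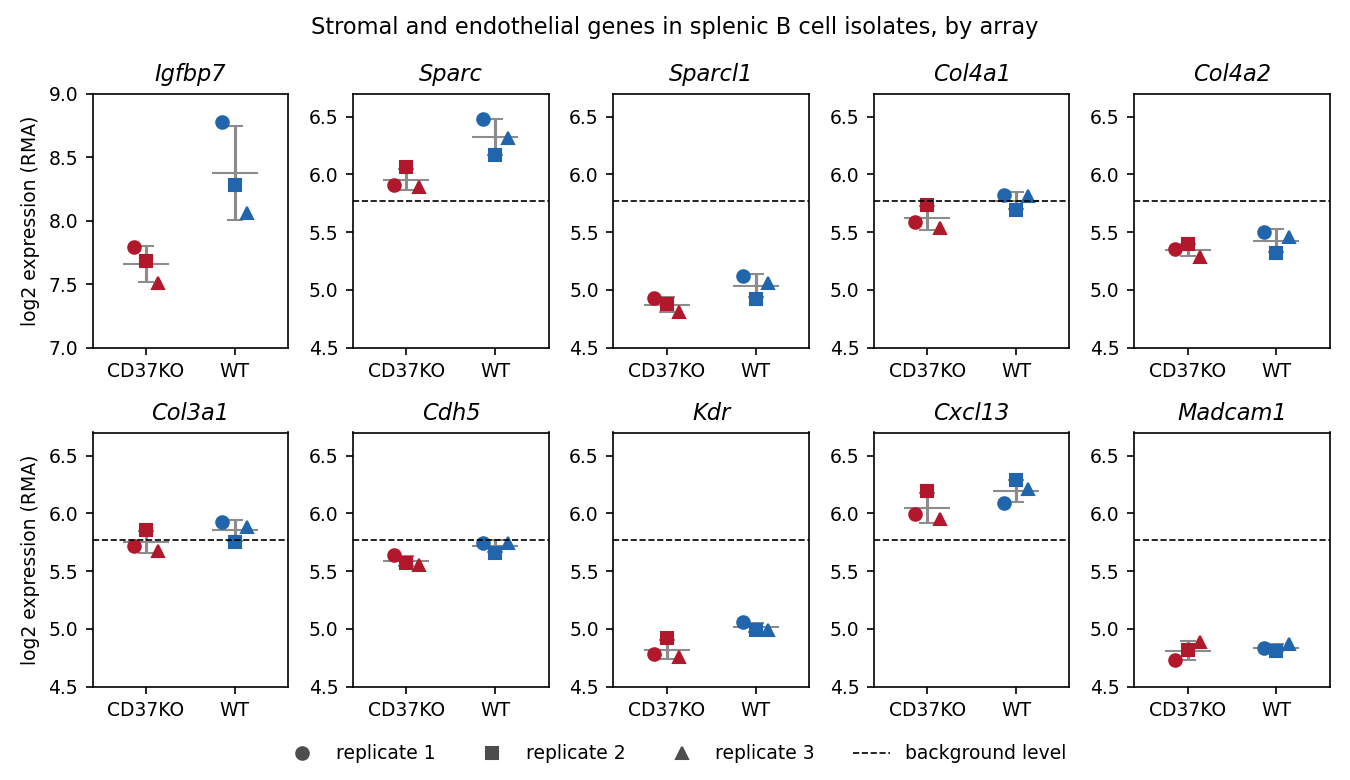
Log2 expression (RMA) of the 10 genes in the 3 CD37KO arrays (red) and the 3 WT arrays (blue), grey bars giving mean and SD, replicates 1, 2 and 3 as circle, square and triangle, and the background level of 5.77 as a dashed line. The vertical range of Igfbp7 differs from that of the others. Igfbp7, picked for its lower level in CD37KO, stands well above the line. Of the 10 genes it has the widest log2 gap between its lowest WT and highest CD37KO array, and also a wide spread within WT. Of the genes, 5 lie below the line in every array.

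Igfbp7 encodes a secreted glycoprotein of vessel walls and stroma that is stored in the basement membrane around endothelium. Its log2 level was 7.79, 7.68 and 7.51 in CD37KO arrays, against 8.78, 8.28 and 8.06 in WT arrays. The groups did not overlap, the lowest WT array lying 0.27 above the highest CD37KO array. The means were 7.66 ± 0.14 in CD37KO and 8.37 ± 0.37 in WT arrays (SD, n = 3 each), a log2 difference of -0.71 or 1.64-fold more in WT. By size, only 2 of the 19935 genes had a more negative difference, a rank that goes with its having been picked for a lower level in CD37KO. The arrays of a genotype spanned 0.28 in CD37KO and 0.72 in WT. The residual SD within genotypes was higher than that of 97.2% of genes. Without WT replicate 1, the highest array, the difference was -0.51, and without WT replicate 3, the lowest WT array, it was -0.87.

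Sparc encodes a secreted protein that binds collagen and calcium and takes part in the assembly of collagen matrix. It was at 5.91, 6.06 and 5.89 in CD37KO arrays, against 6.48, 6.17 and 6.31 in WT arrays. All 6 values were above background, and the groups did not overlap. The means were 5.95 ± 0.093 in CD37KO and 6.32 ± 0.15 in WT arrays (SD, n = 3 each), a log2 difference of -0.37 or 1.29-fold more in WT. Sparc is also abundant in platelets and megakaryocytes, and 8 of their 11 marker genes were measured. Of these, 5 were above background in all arrays. The mean of the 8 was 6.26 to 6.56 in CD37KO and 6.40 to 6.54 in WT arrays, so the groups overlapped. The median log2 difference of the 8 was -0.12, with 6 of them lower by mean, beside 58.2% of all genes. No platelet gene was called by limma after adjustment. Before it, p was under 0.05 for 2 lower genes (Itga2b and Gp9) and 1 higher gene (Itgb3). The shares over all genes were 2.99% lower and 2.96% higher. These platelet genes were chosen after their values had been seen, and Itga2b was not above background in any array. Of the platelet granule genes, Ppbp was above background in all arrays, with means of 6.74 in CD37KO and 6.81 in WT arrays, and Pf4 in none. The part of platelet RNA in the Sparc difference was not tested.

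Sparcl1, the relative of Sparc also called hevin, is a marker of high endothelial venules and stroma. Its values were 4.93, 4.88 and 4.81 in CD37KO arrays, against 5.12, 4.92 and 5.06 in WT arrays, and none was above background. WT replicate 2 lay within the CD37KO range. For a gene of the set under background in all arrays, levels are given and no fold or difference.

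The type IV collagen chains of Col4a1 and Col4a2 wind into 1 shared triple helix of the basement membrane. Col4a1 was at 5.58, 5.74 and 5.54 in CD37KO arrays, against 5.82, 5.69 and 5.81 in WT arrays. It was above background only in WT replicates 1 and 3, and CD37KO replicate 2 exceeded WT replicate 2. Col4a2 was at 5.35, 5.39 and 5.29 in CD37KO arrays, against 5.50, 5.32 and 5.46 in WT arrays, without a value above background. In both genes WT replicate 2 was the lowest WT array and CD37KO replicate 2 the highest CD37KO array.

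Col3a1 encodes the collagen of reticular fibres. It was at 5.72, 5.86 and 5.67 in CD37KO arrays, against 5.92, 5.75 and 5.88 in WT arrays. CD37KO replicate 2 and WT replicates 1 and 3 were above background, and the groups overlapped as for the type IV collagens. The log2 difference was -0.15 for Col4a1 and -0.10 for Col3a1.

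The endothelial pair of the set lay under background throughout. Cdh5 encodes VE-cadherin, the adhesion protein of endothelial junctions, and was at 5.64, 5.57 and 5.55 in CD37KO arrays, against 5.74, 5.66 and 5.75 in WT arrays. Its groups did not overlap. Kdr encodes the main signalling receptor for VEGF-A on endothelium and was at 4.79, 4.92 and 4.76 in CD37KO arrays, against 5.06, 4.99 and 4.99 in WT arrays. Its groups did not overlap either. With the arrays quantile normalized again or centred on their medians, Kdr stayed free of overlap and Cdh5 did not.

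The follicular pair differed in level. Cxcl13 was at 6.00, 6.20 and 5.95 in CD37KO arrays, against 6.09, 6.29 and 6.21 in WT arrays. All values were above background, but CD37KO replicate 2 exceeded WT replicate 1, and the means were 6.05 ± 0.13 in CD37KO and 6.20 ± 0.097 in WT arrays (SD, n = 3 each). The difference of -0.15 was thus close to the spread within a genotype. Madcam1 encodes an adhesion molecule of mucosal venules and of the lining of the splenic marginal sinus, which binds the integrin of Itga4 and Itgb7. It was at 4.73, 4.82 and 4.89 in CD37KO arrays, against 4.84, 4.80 and 4.87 in WT arrays. All 6 values were under background, and the WT values lay inside the CD37KO range. Without CD37KO replicate 1 its mean was higher in CD37KO, the only change of direction among the 10 genes when 1 array was left out.

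Within a genotype, many genes of the set had the same highest or lowest array, but the full order was not shared by all. CD37KO replicate 3 was the lowest CD37KO array for 9 of the 10 genes, all but Madcam1, and CD37KO replicate 2 was the highest for 6. WT replicate 2 was the lowest WT array for 8 of the 10 genes, all but Igfbp7 and Cxcl13, and WT replicate 1 was the highest for 7. The mean log2 deviation of the 10 genes from their genotype mean was -0.0027, 0.064 and -0.061 in CD37KO replicates 1, 2 and 3, and 0.081, -0.068 and -0.014 in WT replicates 1, 2 and 3. Genes not above background in any array deviated on average by -0.031, 0.045 and -0.014 in the same CD37KO arrays and by -0.0079, -0.021 and 0.029 in the same WT arrays. CD37KO replicate 2 was high and WT replicate 2 low in both. The part of this array-wide shift of dim genes in the order of the set was not tested. Cxcl13 had an order of its own in WT arrays, with WT replicate 1 lowest and WT replicate 2 highest.

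**Figure D2:**
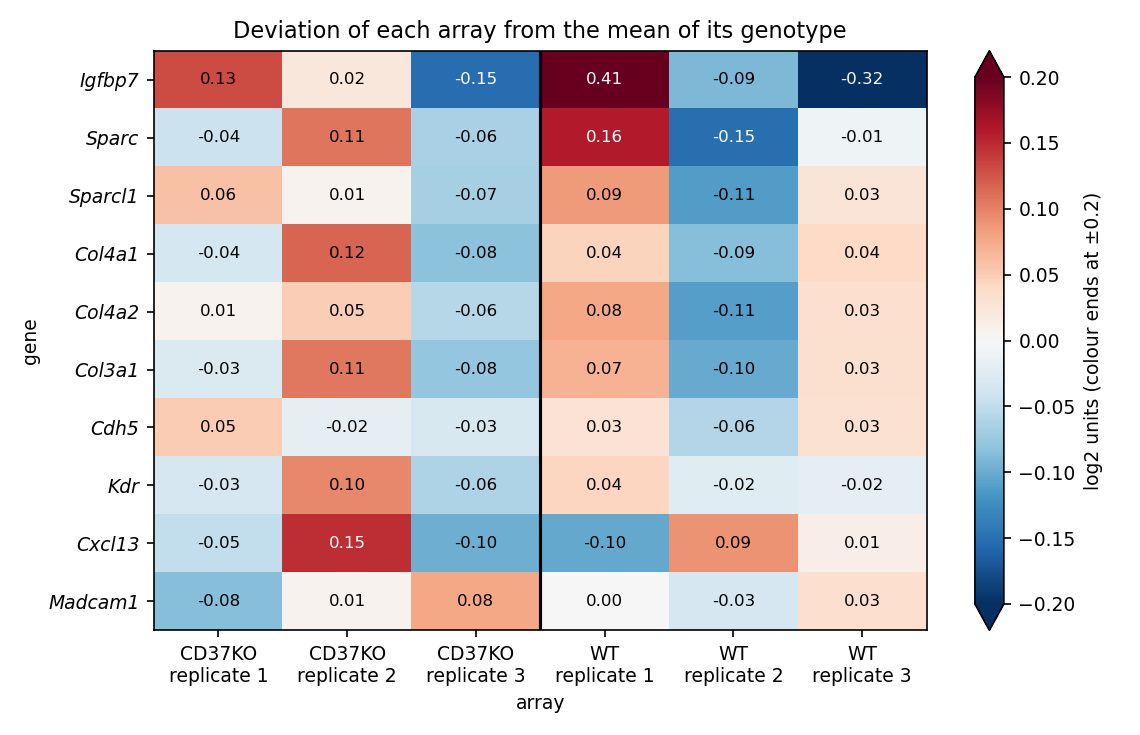
Log2 deviation of each of the 10 genes from the mean of its own genotype in every array, red above and blue below that mean. Sparc, Sparcl1 and the 3 collagen genes fall together in WT replicate 2 and in CD37KO replicate 3, while Cxcl13 is high in WT replicate 2.

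Macrophage and monocyte genes averaged 9.84, 8.50 and 9.93 in CD37KO replicates 1, 2 and 3 and 9.80, 8.98 and 9.09 in WT replicates 1, 2 and 3. In WT arrays this was the order of the set mean too, with replicate 1 highest and replicate 2 lowest, while in CD37KO arrays the orders differed. CD37KO replicate 2, with the least macrophage signal, was the highest CD37KO array for Sparc, Col4a1, Col4a2, Col3a1, Kdr and Cxcl13. WT replicate 1, with the most among WT arrays, was the highest WT array for those genes except Cxcl13. Neutrophil genes averaged 7.72, 6.45 and 7.08 in CD37KO arrays and 6.10, 5.94 and 6.17 in WT arrays, so they were higher in every CD37KO array, in the direction opposite to the 10 genes. No neutrophil gene was called by limma after adjustment. For 11 of the 13, all with higher means in CD37KO, p before adjustment was under 0.05. Of all genes, 2.96% were higher at that level. The part of macrophage and neutrophil RNA in the differences of the set was not tested.

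**Figure D3:**
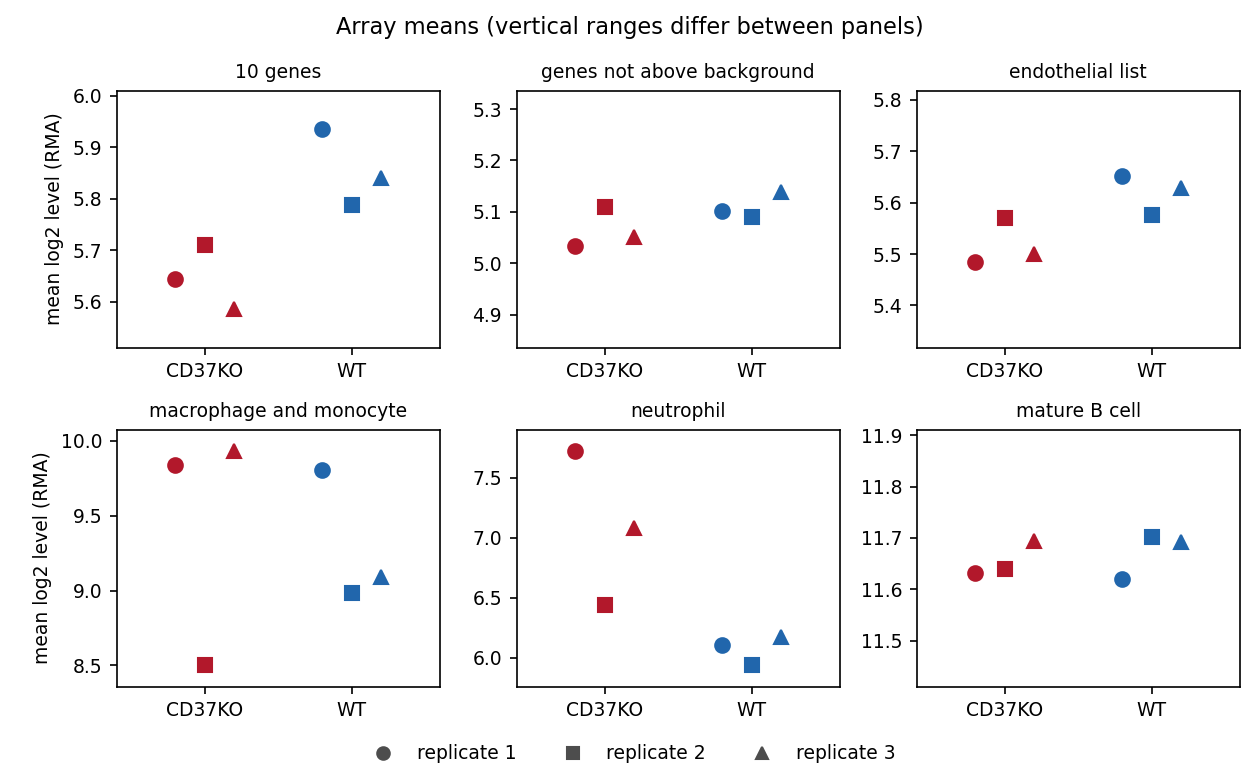
Mean log2 level (RMA) per array of the 10 genes, of the 8655 genes not above background in any array and of 4 cell type lists, with CD37KO in red, WT in blue and replicates as circle, square and triangle. The 10 genes, with Igfbp7 and Sparc picked for their low level among them, average 5.59 to 5.71 in CD37KO and 5.79 to 5.94 in WT arrays. Without Igfbp7, and with each gene centred on its mean over all arrays, the range was -0.13 to -0.0072 in CD37KO and 0.011 to 0.12 in WT arrays. Macrophage genes are high in WT replicate 1 and in CD37KO replicates 1 and 3. Vertical ranges differ between panels.

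To set the 10 genes beside their surroundings, 9 lists of other matrix, vessel and stroma genes and of their partners were read from the same fit. Of 129 genes, 124 were measured, and none of them passed an adjusted p under 0.05 from limma in either direction. At an unadjusted p under 0.05, 8 were lower and 3 higher (6.45% and 2.42%), against 2.99% and 2.96% of all genes. Those shares were not taken over dim genes alone, so nothing is read from the comparison. Every CD37KO array lay below every WT array for 13 of the 124 list genes (10.5%). The share was 7.57% over all genes and 10.8% over genes not above background in any array, to which 73 of the 124 belonged. Their median log2 difference was -0.069.

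Of 24 endothelial genes, 17 were not above background in any array and 3 were above it in all 6. Those 3 were Pecam1, an adhesion protein that B cells also carry, Cldn5, a tight junction protein, and Stab2, a scavenger receptor of sinus endothelium. Pecam1 was at 10.10, 10.02 and 9.97 in CD37KO arrays, against 10.09, 9.97 and 10.09 in WT arrays (log2 difference -0.018 with an SE of 0.067, limma adjusted p = 0.962). Cldn5 was at 5.77, 6.57 and 5.98 in CD37KO arrays, against 6.37, 6.23 and 6.62 in WT arrays (log2 difference -0.30 with an SE of 0.19, limma adjusted p = 0.807). Leaving out 1 array moved it to -0.13 (CD37KO replicate 1), -0.53 (CD37KO replicate 2) or -0.19 (WT replicate 3). Stab2 had a log2 difference of -0.11 with an SE of 0.13 (limma adjusted p = 0.870) and lay between -0.19 and 0.020 when 1 array was left out, turning without CD37KO replicate 2. The list had a median of -0.093, with 20 of 24 genes lower by mean, beside 58.2% of all genes and 75.2% of genes not above background in any array. Ptprb, a phosphatase partner of VE-cadherin, and Plvap, a protein of endothelial diaphragms, were named after their values had been seen. They were the 2 of 24 endothelial genes lower at an unadjusted p under 0.05, beside 2.99% of all genes. Ptprb averaged 5.07 in CD37KO and 5.39 in WT arrays (limma adjusted p = 0.777), and Plvap 5.46 in CD37KO and 5.74 in WT arrays (limma adjusted p = 0.801), the means being under background. Plvap was above it in 2 arrays and Ptprb in none.

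The matrix genes around the collagens of the set were dim as well. Of 17 genes of fibrillar and interstitial matrix, 2 were above background in all arrays, none passed at an unadjusted p under 0.05, and the median log2 difference was -0.078. Col1a1, the chief fibrillar collagen chain, was at 6.04, 6.13 and 6.18 in CD37KO arrays, against 6.17, 6.18 and 6.22 in WT arrays, overlapping by a narrow margin (limma adjusted p = 0.833). Its partner chain Col1a2 averaged 5.68 in CD37KO and 5.77 in WT arrays, the type VI collagen chain Col6a1 5.67 in CD37KO and 5.80 in WT arrays, and the proteoglycan Bgn 5.79 in CD37KO and 5.93 in WT arrays, with overlapping groups for each. Of 15 basement membrane genes, 3 were above background in all arrays, and the median was -0.083. At an unadjusted p under 0.05, 1 was lower, beside 2.99% of all genes. It was above background in fewer than 3 arrays and is not among the genes named next. Hspg2, the proteoglycan perlecan, was at 5.83, 5.91 and 5.76 in CD37KO arrays, against 5.91, 5.94 and 5.97 in WT arrays. Its groups did not overlap, with a log2 difference of -0.11 and an SE of 0.064 (limma adjusted p = 0.801), or -0.071 without CD37KO replicate 3. Lamb2, a laminin chain, averaged 5.75 in CD37KO and 5.86 in WT arrays, Nid1, which links laminin to type IV collagen, 7.87 in CD37KO and 7.94 in WT arrays, and Agrn, a proteoglycan that binds laminin, 5.97 in CD37KO and 6.04 in WT arrays. The groups overlapped for these genes. The 12 genes of pericytes and smooth muscle had a median of -0.062 and none at an unadjusted p under 0.05. The adhesion protein gene Mcam averaged 6.10 in CD37KO and 6.26 in WT arrays, and Notch3, a receptor of mural cells, 5.78 in CD37KO and 5.76 in WT arrays. Among 16 relatives of the 10 genes by family, which include the other IGFBP genes, 14 were not above background in any array. At an unadjusted p under 0.05, 3 of the 16 were lower, beside 2.99% of all genes. Cdh11, a cadherin of fibroblasts, averaged 5.96 in CD37KO and 5.99 in WT arrays.

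Enzymes that process collagen were mixed in level and direction. Of 10 measured, 5 were above background in all arrays and 4 in none. The mean was lower in CD37KO for 5 of them, beside 58.2% of all genes, and the median log2 difference was -0.0081. P4ha1, a subunit of the prolyl hydroxylase of collagen, was at 9.59, 9.58 and 9.88 in CD37KO arrays, against 9.40, 9.14 and 9.42 in WT arrays. It was higher in every CD37KO array, with a difference of 0.36 and an SE of 0.11 (limma adjusted p = 0.801), and did not pass the adjustment. P4hb, the other subunit of that hydroxylase, averaged 9.96 in CD37KO and 9.86 in WT arrays, a log2 difference of 0.10 that was 0.031 without CD37KO replicate 3 and 0.15 without CD37KO replicate 1. The lysyl hydroxylase Plod1 averaged 7.46 in CD37KO and 7.16 in WT arrays and the procollagen protease Bmp1 6.13 in CD37KO and 6.19 in WT arrays, with overlapping groups.

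Among the VEGF ligands and co-receptors of Kdr, Vegfa averaged 7.27 ± 0.17 in CD37KO and 7.07 ± 0.071 in WT arrays (SD, n = 3 each), and the groups overlapped (log2 difference 0.19 with an SE of 0.092, limma adjusted p = 0.801). The Vegfa difference was 0.10 without CD37KO replicate 2. The co-receptor gene Nrp2 was at 5.83, 5.93 and 5.73 in CD37KO arrays, against 5.96, 5.96 and 6.15 in WT arrays (log2 difference -0.19 with an SE of 0.082, limma adjusted p = 0.801). It was the lower gene of this list of 7 at an unadjusted p under 0.05, beside 2.99% of all genes. No gene of the list was higher at that level. Vegfb, another ligand of the family, averaged 7.78 in CD37KO and 7.71 in WT arrays, and the co-receptor gene Nrp1 6.17 in CD37KO and 5.99 in WT arrays, with overlapping groups.

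Of 12 measured genes of follicular and reticular stroma, 4 were above background in all arrays, and their median was -0.091. Grem1, a BMP antagonist of reticular cells, was at 5.67, 5.84 and 5.34 in CD37KO arrays, against 6.00, 5.70 and 6.16 in WT arrays (limma adjusted p = 0.801). Ccl19, a T zone chemokine, was at 5.91, 6.14 and 5.87 in CD37KO arrays, against 6.08, 6.07 and 6.06 in WT arrays (limma adjusted p = 0.838). Pdpn, the podoplanin of reticular cells, averaged 5.83 in CD37KO and 6.04 in WT arrays, and Tnfsf11, which encodes RANKL, 6.10 in CD37KO and 6.31 in WT arrays. The groups overlapped for all 4.

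Of 11 receptor, ligand and signalling genes that act with Cxcl13 and Madcam1, 10 were above background in all arrays, with a median log2 difference of 0.074. Lta, which encodes lymphotoxin alpha, a signal of lymphocytes to follicular stroma, was at 6.51, 6.39 and 6.60 in CD37KO arrays, against 6.13, 6.27 and 6.19 in WT arrays. Its groups did not overlap, with a log2 difference of 0.30 with an SE of 0.076 (limma adjusted p = 0.801). Relb, a subunit of NF-kappaB that acts downstream of lymphotoxin receptors, had a log2 difference of 0.16 with an SE of 0.063 (limma adjusted p = 0.801). Neither passed the adjustment. They were the genes of this list that were higher at an unadjusted p under 0.05, beside 2.96% of all genes. Ltbr, the lymphotoxin beta receptor of stromal and myeloid cells, averaged 5.94 in CD37KO and 5.85 in WT arrays. Tnfrsf1a, a TNF receptor, was at 7.24, 6.24 and 7.02 in CD37KO arrays, against 6.90, 6.32 and 6.52 in WT arrays. The groups overlapped for both. In both genotypes the array lowest for Tnfrsf1a, replicate 2, was also the lowest for macrophage genes, whose part in it was not tested.

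**Figure D4:**
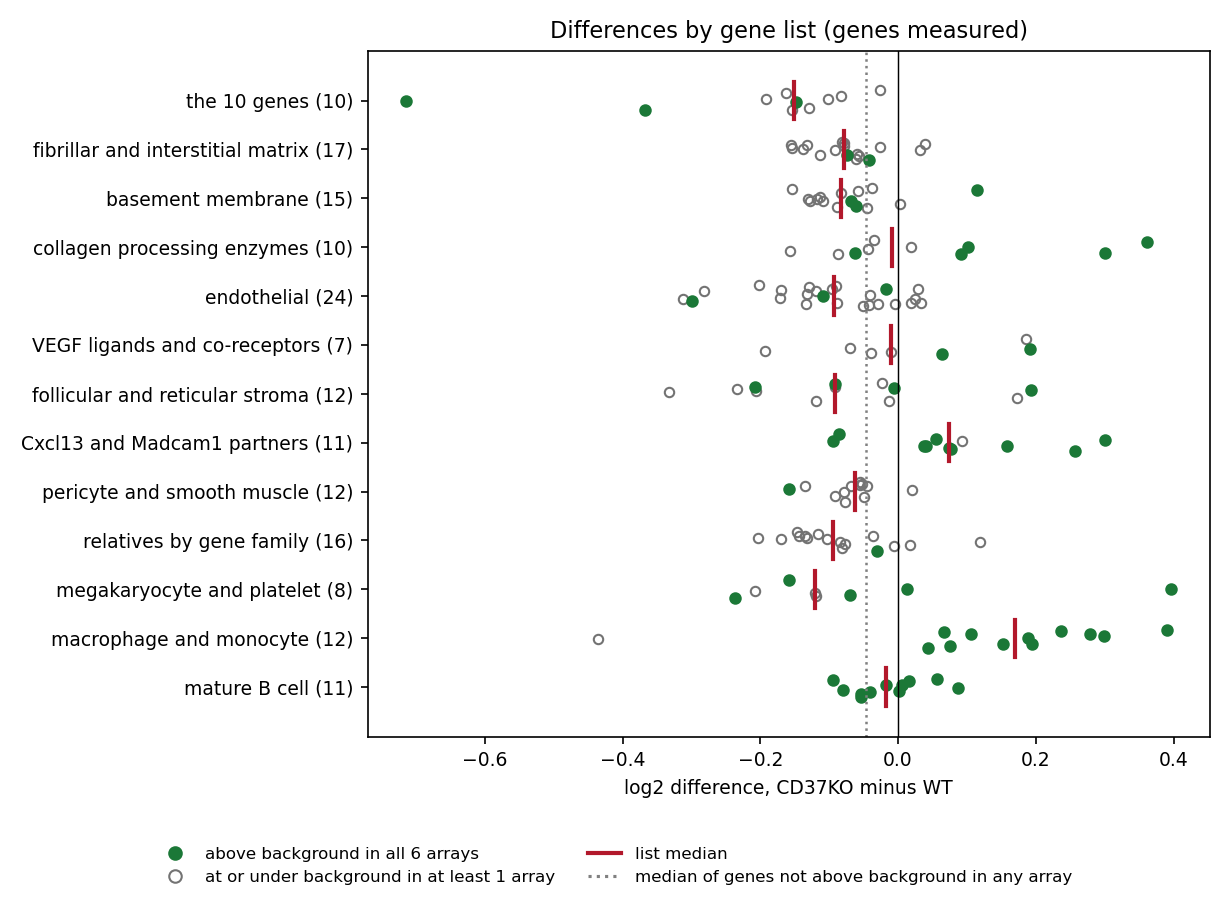
Difference in log2 level, CD37KO minus WT, of every measured gene of the set, of the 9 lists around it and of 3 cell type lists. Green points were above background in all 6 arrays and open points were not, red bars are list medians and the dotted line is the median of -0.046 over genes not above background in any array. Igfbp7 (-0.71) and Sparc (-0.37), both picked for their low level, are the leftmost points of the top row, and most points of the matrix and vessel lists are open.

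The genes whose pattern over the 6 arrays was most like the mean of the set were picked from 694 genes that were above background in at least 3 arrays and had an SD of at least 0.25. The 10 nearest had a Pearson correlation of 0.87 to 0.96 with that mean, given here as a description. Irf3 came first (r = 0.96), followed by H2bc22, Ccr1l1, Spty2d1, Rtn4rl1, 2410002F23Rik, Pold1, Cd37, Bcat2 and Hps5. Of these 10, 7 lie on chromosome 7, which carries Cd37, and none of the genes of the set does. The share of the 694 genes that lies on chromosome 7 was not counted. The correlation includes the genotype contrast that served to choose the set. With each array set against the mean of its genotype, only 2 of the 10 genes, Irf3 and Rtn4rl1, were again among the nearest 10. Of the nearest 10 by that measure, 1 (Irf3) lies on chromosome 7.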

How the data were processed

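RNA of CD43-negative splenic B cells from 3 CD37KO and 3 WT mice was measured with 1 array per mouse. The authors deposited log2 values per probe set after RMA, as the submitters' processing notes state together with the build mm8; what software ran RMA is not stated there. RMA draws low signals together, so differences of dim genes are compressed. Of 35361 probe sets, 21780 name 1 gene, and the brightest per gene was kept (19935 genes, no filter on level). Symbols followed the Entrez Gene ID in the gene table of GRCm38.p6. As background served the 95th percentile over 1015 olfactory receptor genes, each averaged over the arrays. Differences, CD37KO minus WT, came from limma 3.58.1 under R 4.3.3 (lmFit, then eBayes), with two-sided p-values adjusted after Benjamini-Hochberg across all genes and called under 0.05. The script was first tested on simulated data. The p-values set each difference against the spread between these mice, which eBayes moderates with that of all genes. The number of arrays limits the precision. The 10 genes and all lists were chosen with earlier results of these data known. Genes of lists were named by the smallest unadjusted p, up to 4 per list, among those above background in at least 3 arrays, and genes of cell type lists and other exceptions were named after their values had been seen. Proteins were not analysed here. Alternatives were a second quantile normalization, median centring, averaging the probe sets of a gene, a filter on dim genes, eBayes with trend and robust settings, plain least squares, weights per array, a block by replicate number, each array left out in turn, and other background levels.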

Additional observations from a re-analysis of the deposited data

How the results depend on the processing

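Of all genes, 11 were called, against 3 with ordinary least squares, 19 with array weights, 4 with the replicate number as a block and 4 to 14 when 1 array was left out (14 without CD37KO replicate 2, 4 without either other CD37KO array or without WT replicate 1, 5 and 6 without WT replicates 3 and 2). The split of 5 higher and 6 lower was 5 and 4 after a second quantile normalization, 12 and 2 without CD37KO replicate 2, and 3 and 1 with the block and without CD37KO replicate 1, CD37KO replicate 3 or WT replicate 1. None of the 10 genes and none of the 124 list genes was called under any of these settings. Over all genes, the deviations of arrays with the same replicate number correlated at 0.24, 0.0068 and -0.14 for replicates 1, 2 and 3. These values do not decide on pairing in single genes. The block lowered the SE of Tnfrsf1a from 0.25 to 0.12 and raised that of Nrp2 from 0.082 to 0.093. It changed no call on the 10 genes. The median log2 difference of the 10 genes was -0.15, and -0.11 to -0.19 when 1 array was left out. Over the 4 of them above background in at least 3 arrays it was -0.26, by construction without the dim genes. With array weights Sparc differed by -0.50. The number of genes of the set without overlap was 4, against 3 with quantile normalization or median centring, 7 without CD37KO replicate 2 and 8 without WT replicate 2, a count added after seeing the data. Groups of fewer arrays overlap less easily, and the share over all genes was not taken at these settings. Nothing is read from these counts. Above background in all arrays were 6 of the 10 with the line at the 90th percentile and 1, Igfbp7, at the 99th. Directions turned for Agrn with array weights (0.012), Stab2 without CD37KO replicate 2 (0.020), Pecam1 without CD37KO replicate 3, WT replicate 1 or WT replicate 3 (0.011, 0.0024 and 0.0015, with -0.057 the lowest), Nrp1 without CD37KO replicate 1 (-0.022, with 0.40 the highest) and Notch3 without WT replicate 1 (-0.030, with 0.083 the highest). None of these genes had been called, and the cause was not tested. For low genes, signal over background sets the limit.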

Other observations

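Lists of other cell types were read to look at the isolates, and their genes are named after their values had been seen. Of 8 T cell genes, 3 were above background in all arrays (Cd3e, Cd4 and Lat), and the list averaged 5.74 to 5.85 in CD37KO and 5.81 to 5.93 in WT arrays, with a median log2 difference of -0.091. Of 8 dendritic cell genes, 5 were above background in all arrays, with a median of -0.12. The list averaged 5.74 to 5.87 in CD37KO and 5.88 to 5.94 in WT arrays. Every CD37KO array mean of this list thus lay below every WT array mean. Siglech and Cd209a were lower at an unadjusted p under 0.05, beside 2.99% of all genes. They did not pass the adjustment (limma adjusted p = 0.801 for both). Of 7 measured genes of erythroid cells, 3 were above background in all arrays, with a median of 0.088.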
